A study of Mus musculus with 10 samples.

Results

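The mitochondrial respiratory chain genes are the nuclear genes whose products build the 5 enzyme complexes of oxidative phosphorylation. They were chosen by symbol alone, as protein-coding genes of the mouse build mm10 whose symbols start with Nduf, Sdha to Sdhd, Uqcr, Cox4i, Cox5 to Cox8 or Atp5. The rule found 100 of 21883 protein-coding genes on chromosomes 1 to 19, X and Y, with 49 in complex I, 8 in complex II, 8 in complex III, 18 in complex IV and 17 in complex V. Assembly factors that carry these symbols, Ndufaf1 to Ndufaf8 and Sdhaf1 to Sdhaf4, are among them. Ndufa4 and Ndufa4l2 were counted under complex I by symbol, although the Ndufa4 protein is found in complex IV.

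Open chromatin was mapped by ATAC-seq, an assay that lets a transposase cut accessible DNA, in muscle stem cells of C57BL/6 mice sorted as α7-integrin+ CD34+. Cells of aged mice (20 to 25 months) and of young mice (8 to 20 weeks) were cultured for 2 h with prostaglandin E2 (PGE2, a lipid mediator of inflammation) or with its vehicle, 0.1% DMSO. The labels name 3 aged PGE2, 2 young PGE2, 3 aged vehicle and 2 young vehicle samples. The results rest on 1 deposited peak list from aged cells after PGE2 and 1 from young cells after PGE2, and vehicle cells are not analysed here. The labels do not say how many animals gave each sample. With 1 list per age and no value per library, no difference between the ages has a replicate error or a p-value. Library depths are unknown.

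Complex I takes electrons from NADH and complex II from succinate, complex III passes them through cytochrome c to complex IV, which reduces oxygen, and complex V uses the proton gradient to make ATP. A few subunits are encoded in mitochondrial DNA and the others in the nucleus, most of them by the genes described here. Quiescent muscle stem cells have few mitochondria, and mature fibres many. Several complex IV subunits have a general form and a second form made mainly in heart and skeletal muscle, lung or testis. The transcription factors NRF1, GABP (an ETS factor), YY1 and Sp1 are the textbook regulators of these promoters.

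Stretches of promoter around recognition letters of NRF1 or GABP/ETS are shown for 1 gene of each complex. These letters were among those that the promoters of the set held more often than the promoters of all genes. Each stretch was taken from the gene with the highest rank in the aged list that had an NRF1 match wholly before its start, or failing that a GABP/ETS match. Capitals mark the matched letters, which are GCGCATGCG for NRF1 and CCGGAAG for GABP/ETS on either strand. The sequences are RefSeq promoter entries of GRCm38.p6, written 5′ to 3′ on the strand of the gene. They lie at chr17:56717673-56717741 (plus strand) for Ndufa11, chr6:6955861-6955927 (plus) for Sdhaf3, chr4:116075071-116075110 (minus) for Uqcrh, chr5:115349081-115349149 (minus) for Cox6a1 and chr15:102671050-102671118 (minus) for Atp5g2.
Ndufa11: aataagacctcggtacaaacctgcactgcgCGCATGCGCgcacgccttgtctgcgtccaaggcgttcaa
Sdhaf3: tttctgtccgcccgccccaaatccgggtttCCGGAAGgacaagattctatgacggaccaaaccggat
Uqcrh: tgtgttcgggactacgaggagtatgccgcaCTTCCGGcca
Cox6a1: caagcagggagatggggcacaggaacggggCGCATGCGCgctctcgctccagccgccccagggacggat
Atp5g2: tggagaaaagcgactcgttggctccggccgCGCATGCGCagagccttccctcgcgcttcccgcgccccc

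Almost the whole respiratory chain was open at both ages. Overlapping and adjoining peaks were joined into regions, and a region within 1 kb of either end of a gene's span is called a gene-end region. Both lists held such a region for 93 of the 100 genes, against 63.3% of all protein-coding genes. None had it in the aged list only (0.480% of all genes), 1 had it in the young list only (3.20% of all genes) and 6 had it in neither. In complexes II, III and V all 8, 8 and 17 genes were open in both lists, and in complex I 47 of 49. Complex IV stood apart, with 13 of 18 open in both. Cytosolic ribosomal protein genes (83 of 90) and proteasome subunit genes (39 of 40), which most cells use, had similar shares. In a pooled list, a region open in few cells and a region weakly open in many cannot be told apart.

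The 7 exceptions were mostly tissue forms or extra copies. Cox8b, a heart and skeletal muscle form of subunit VIII, had 1 weak region in the young list only, at chr7:140900012-140900538, where the fold over background, a value of the authors' peak caller, was 2.86. Cox6a2, another heart and muscle form, and Cox8c and Cox7b2, testis forms, had no gene-end region in either list. Ndufb4b and Ndufb4c, short genes of 471 and 485 bp named after the complex I subunit gene Ndufb4, had none either, while Ndufb4 itself had folds of 45.1 in the aged list and 73.8 in the young list. Cox7a2, the general form of subunit VIIa, is an exception to the measure and not closed. Its start lies inside the annotated span, and the region there, chr9:79759296-79760406 in the aged list, had folds of 75.9 in the aged list and 103.8 in the young list.

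The regions were also strong for their lists. Each region was ranked within its own list by the deposited −log10 p-value of its strongest peak, so that the 99th percentile is near the top. Of the 100 genes, 64 reached the strongest 10% of the aged list, against 33.7% of all genes, many of which have no region. They numbered 75 in the young list, against 40.1% of all genes. Among genes with a gene-end region in the aged list, the shares were 68.8% in the aged list and 80.6% in the young list for the respiratory chain, against 52.9% and 62.7% over all genes. Of all ribosomal protein genes, 71.1% reached it in the aged list and 82.2% in the young list, and of all proteasome genes 70% and 87.5%. Among those with a gene-end region in the aged list, ribosomal protein genes had 77.1% and 89.2% and proteasome genes 71.8% and 89.7%. On either count the shares were not higher for the respiratory chain. The 93 genes with a gene-end region in the aged list had a median fold of 37.6, against 28.9 over all genes with such a region, and the 94 in the young list one of 58.9, against 44.0. Folds of the 2 lists come from separate calls and are set side by side, not compared.

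**Figure D1:**
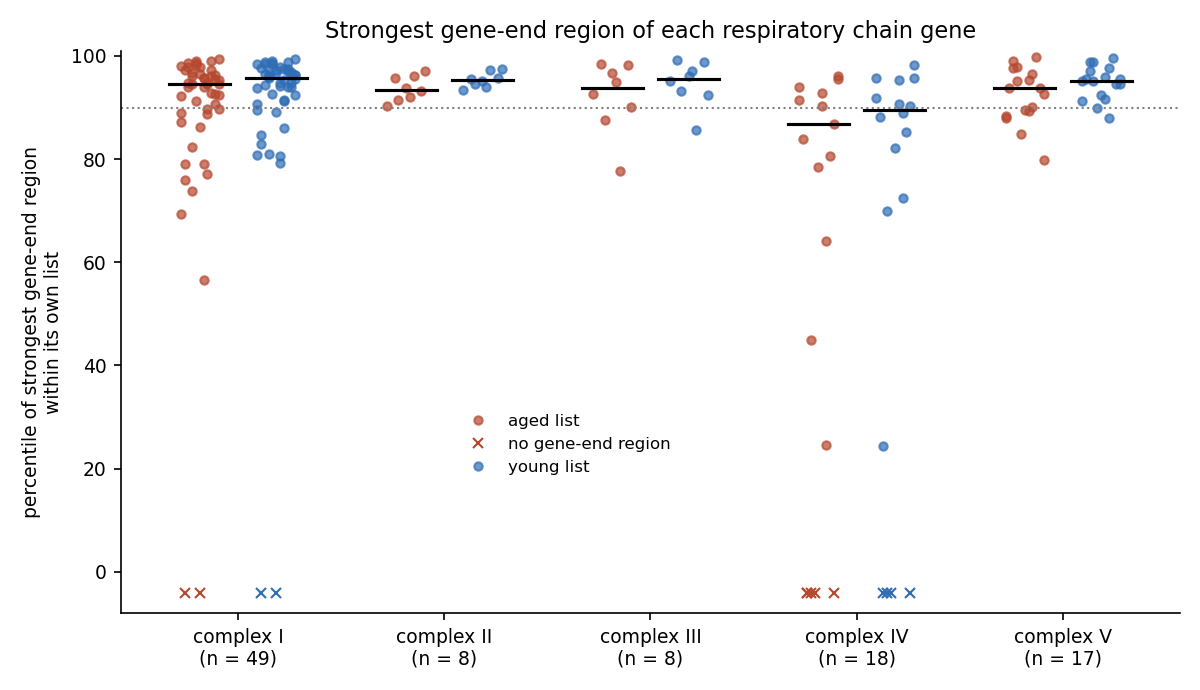
The percentile of the strongest gene-end region within its own list is plotted for each respiratory chain gene, by complex, with the aged list left and the young list right; bars are medians, crosses are genes with no gene-end region, and the dotted line marks the 90th percentile. The medians of complexes I, II, III and V lie between 93.5 and 95.7 in both lists, and complex IV has medians of 86.8 in the aged list and 89.6 in the young list and the widest spread.

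**Figure D2:**
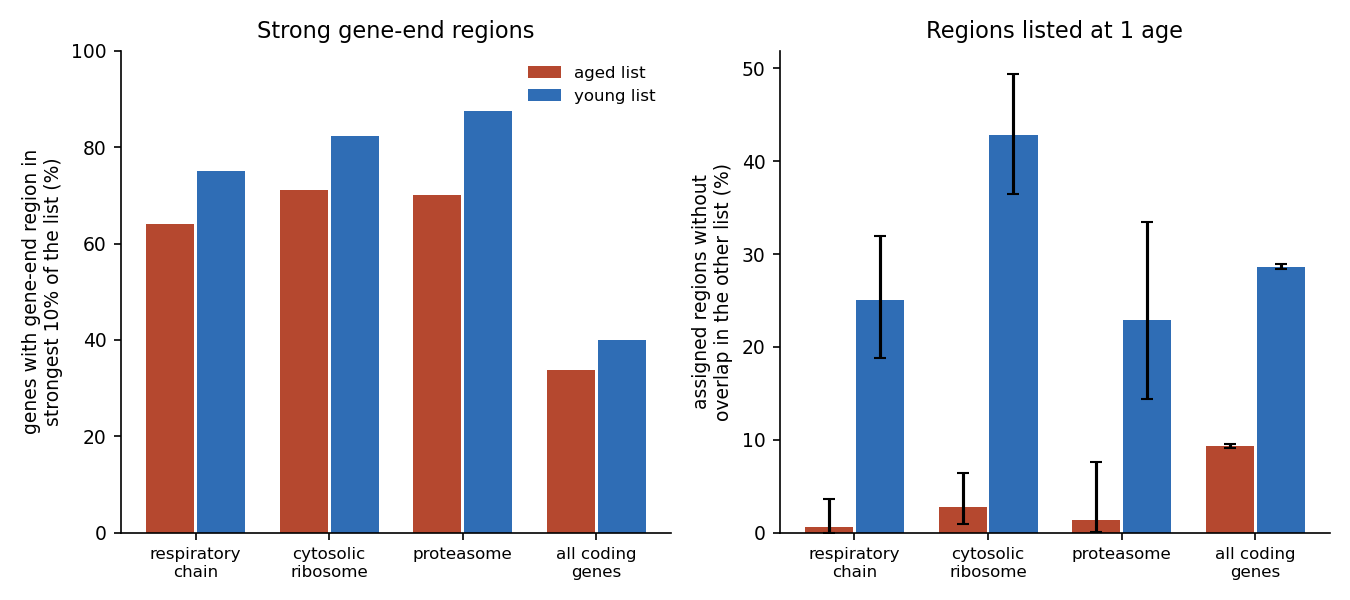
Left, the percent of genes whose strongest gene-end region is among the strongest 10% of its list; right, the percent of assigned regions with no overlap in the other list, with exact 95% intervals for counting error. The respiratory chain has 64% and 75% on the left in the aged and young lists, near the ribosome and proteasome and above the share of all genes, and on the right 0.667% and 25%.

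Complex I, the NADH dehydrogenase, had a median percentile of 94.5 in the aged list and 95.7 in the young list over its 47 open genes. The highest was Ndufv2, an iron-sulfur subunit of the module that binds NADH, with folds of 91.6 in the aged list (percentile 99.4, chr17:66100661-66102593) and 136 in the young list (percentile 99.4). Ndufb5, a membrane-arm subunit, followed in the order of the aged list with 81.4 in the aged list and 109 in the young list, and Ndufa6, a subunit of the peripheral arm, with 79.1 and 103. Ndufs1, Ndufs3, Ndufs7, Ndufs8 and Ndufv1, which belong to the catalytic core as Ndufv2 does, were open in both lists. Their folds ranged from 20.2 to 48.9 in the aged list and from 30.7 to 69.5 in the young list.

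The 8 assembly factors Ndufaf1 to Ndufaf8, which help to build complex I and are not part of it, were all open in both lists. Their median percentile was 96.9 in the aged list and 97.6 in the young list. Ndufaf2, an assembly chaperone, had folds of 72.5 in the aged list and 107 in the young list. Ndufaf1, also needed for assembly, had the lowest open gene end of the complex in the aged list, with a fold of 5.14 (percentile 56.6) there and 15.0 (percentile 79.2) in the young list. The next lowest was Ndufa1, an X-linked subunit, with 7.93 in the aged list (percentile 69.4) and 16.4 in the young list (percentile 80.8). Both genes ranked lower in the aged list than in the young list by more than 10 percentiles, and no replicate stands behind that gap.

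In Ndufb10, a membrane-arm subunit gene, the lists drew different boundaries. The aged list had 2 regions, a strong one of 1096 bp with a fold of 15.4 at the start of the gene and a weak one of 288 bp with a fold of 2.35. The young list had 1 merged region of 5848 bp with 19 summits and a fold of 63.2. Within 1 kb of the annotated start, the strongest summits had folds of 15.4 in the aged list and 28.3 in the young list. The strongest summit of the merged young region thus lay farther from the start. The percentiles of 82.3 in the aged list and 95.7 in the young list do not describe the same stretch of DNA.

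Complex II, succinate dehydrogenase, was the most even of the set. All 8 genes were among the strongest 10% of both lists, and their folds lay between 27.9 and 54.9 in the aged list and between 47.1 and 81.8 in the young list. Sdha, the flavoprotein that oxidises succinate, had 27.9 in the aged list and 47.1 in the young list. Sdhb, the iron-sulfur subunit, had 46.7 and 62.2 in the same order. The membrane anchors that bind ubiquinone were close to each other, Sdhc with 35.7 and 62.8 and Sdhd with 37.6 and 59.2. Among the assembly factors, Sdhaf3, which helps to mature the iron-sulfur subunit, was highest with 54.9 and 81.8, and Sdhaf1, with a like role, had 48.9 and 79.3. Sdhaf2, which attaches the flavin to Sdha, was at 30.3 in the aged list and 54.7 in the young list. The Sdhaf3 span covers 83691 bp and held only 1 region in each list, at its start.

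Complex III, cytochrome bc1, was open at all 8 genes. Uqcrfs1, the Rieske iron-sulfur protein, had folds of 69.4 in the aged list (chr13:30544714-30546106) and 123 in the young list. Uqcrh, the hinge protein that contacts cytochrome c1, had 67.2 and 109, and Uqcrq, a small subunit, 52.5 and 65.9. The core proteins Uqcrc1 and Uqcrc2 were at 27.2 and 42.8 in the aged list and at 42.6 and 77.6 in the young list. The lowest in the aged list were small subunits too, Uqcrb with 22.2 in the aged list and 46.3 in the young list and Uqcr11 with 11.7 and 23.1. Outside the symbol rule, cytochrome c itself (Cycs), the carrier between complexes III and IV, had 86.0 in the aged list and 128 in the young list.

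Complex IV, cytochrome c oxidase, divided by isoform. The general forms were open in both lists: Cox4i1 had folds of 30.4 in the aged list and 39.7 in the young list, Cox6a1 27.8 and 35.6, Cox6b1 21.1 and 34.2, and Cox8a 34.7 and 59.3. Subunits outside these pairs were open too. Cox7c was highest of the complex by gene end with 48.6 in the aged list and 95.4 in the young list, followed by Cox5b with 44.8 and 63.7 and by Cox7a2l, which links complexes III and IV into supercomplexes, with 38.6 and 63.4. Cox5a had only weak gene-end regions, with folds of 3.84 in the aged list and 9.51 in the young list, but its annotated start lies inside the span and had 49.4 and 71.4 there. Cox7b, an X-linked general form, was the weakest of the general forms with 6.54 in the aged list and 10.7 in the young list.

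None of the 8 tissue forms had a gene-end region in the strongest 10% of either list. Cox7a1, the heart and muscle form of subunit VIIa, had folds of 13.8 in the aged list (percentile 80.6) and 22.1 in the young list (percentile 85.2). Cox6b2, a testis form, had 12.2 and 17.9, in a region that also reaches an end of Fam71e2. Ndufa4l2, a hypoxia-induced relative of Ndufa4, had 10.7 and 18.9 near an end of Stac3, and a stronger region inside its span with 27.8 in the aged list (percentile 90.3) and 50.1 in the young list (percentile 93.9). Cox7b2 held 1 region in the young list only, deep inside its span of 105383 bp, with a fold of 3.21. The nearest region to Cox8c was 19396 bp away in the aged list and 19404 bp away in the young list.

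Cox4i2, a lung form of subunit IV that oxygen regulates, showed the largest gap between the lists among the genes open in both. Its aged gene-end region spanned 218 bp at chr2:152765938-152766155 with a fold of 2.74 (percentile 24.6). The overlapping young region spanned 978 bp with a fold of 30.3 (percentile 88.9). This region lies outside the gene, 899 bp past the span's end in the aged list and 875 bp in the young list. At the other end of the span the young list had 2 more regions with folds of 4.27 and 2.60, and the aged list had none. The table of annotated starts used here has no entry for Cox4i2, so which end is the promoter was not determined.

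**Figure D3:**
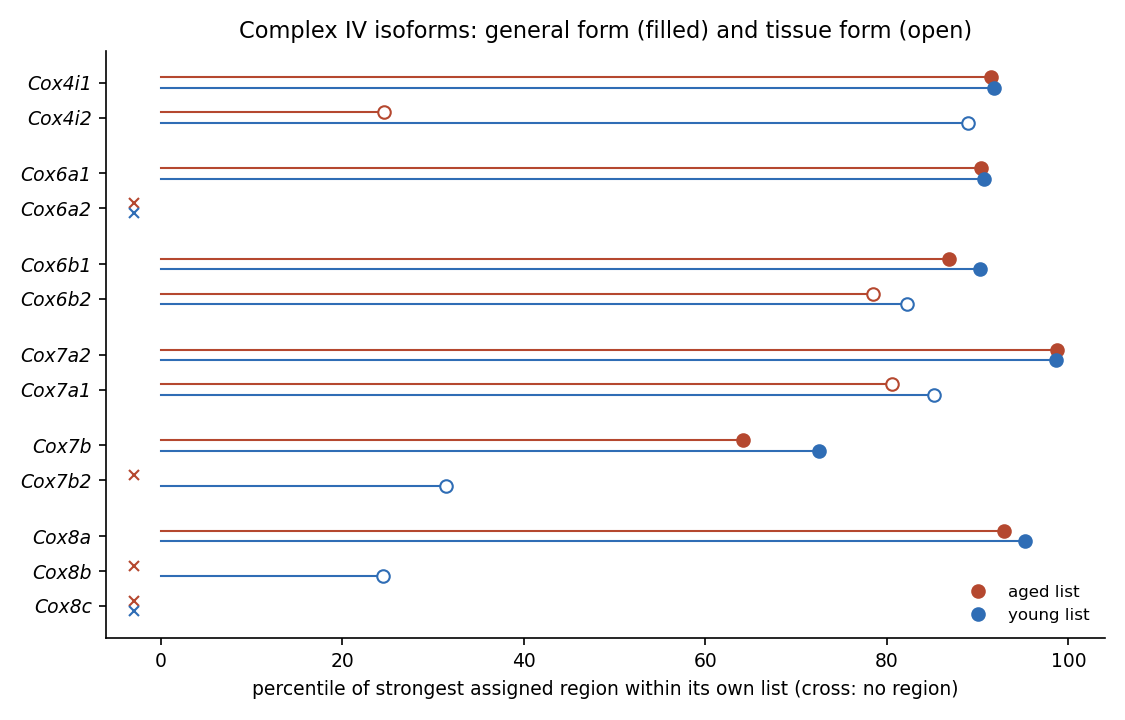
The percentile of the strongest region assigned to each gene, at an end or inside the span, is shown for complex IV isoforms, with the aged list above the young list, filled circles for general forms, open circles for tissue forms and crosses where no region was listed. Each general form lies to the right of its tissue forms in both lists, from 64.2 for Cox7b to 98.8 for Cox7a2 in the aged list.

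Complex V, ATP synthase, was open at all 17 genes, and held the strongest gene end of the whole set. Atp5j, coupling factor 6 of the stalk, had folds of 126 in the aged list (percentile 99.9, chr16:84833970-84836880) and 155.5 in the young list (percentile 99.6). That region is shared with Gabpa, the gene for the DNA-binding subunit of GABP, which starts in the opposite direction 148 bp from an annotated start of Atp5j. Atp5g1, one of the genes for the c ring, had 79.2 and 113, against 37.8 and 54.5 for Atp5g2 and 26.0 and 42.7 for Atp5g3, which encode the same mature protein. Atp5c1, the rotating central stalk, had 62.8 and 107. The catalytic beta subunit gene Atp5b had 50.9 and 83.5, and the alpha subunit gene Atp5a1 had 23.8 and 58.0. The lowest in the aged list were Atp5j2, a small subunit of the membrane part, with 18.4 there and 32.8 in the young list, and Atp5d, a central stalk subunit, with 13.2 in the aged list and 62.0 in the young list. The Atp5d values are of different ends: the young one comes from a merged region of 9058 bp where the aged list had separate peaks, and at the annotated start, inside the span, the folds were 38.9 and 42.8.

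The summits lay at the starts. The RefSeq promoter table gives a strand and start for 82 of the 100 genes, and for 79 of them both lists had a region within 1 kb of the start, against 63.2% of all genes with an entry. The exceptions were Ndufb4b and Cox7b2, with none in either list, and Cox8b, where the young list alone had a region. The start itself lay inside a region for 79 genes in the aged list and 80 in the young list. The median summit was 42 bp before the start in the aged list (offset -42, quartiles -88 and 0, n = 79), and its offset was -39.5 in the young list (quartiles -81.5 and -3, n = 80). Over all genes the medians were -41 and -33. Summits within 200 bp of the start made up 88.6% in the aged list and 90% in the young list, against 72.7% and 72.8% over all genes. Ribosomal protein genes had similar shares, 86.9% and 90.2%, and proteasome genes 84.8% in each list. Regions reached a median of 627 bp before and 607 bp past the start in the aged list, and 718.5 and 799 bp in the young list. The far ends of the genes were mostly closed. Among 65 genes of at least 3 kb, 6 (9.23%) had a region at the finish in the aged list and 10 (15.4%) in the young list, against 15.3% and 19.1% over all such genes.

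**Figure D4:**
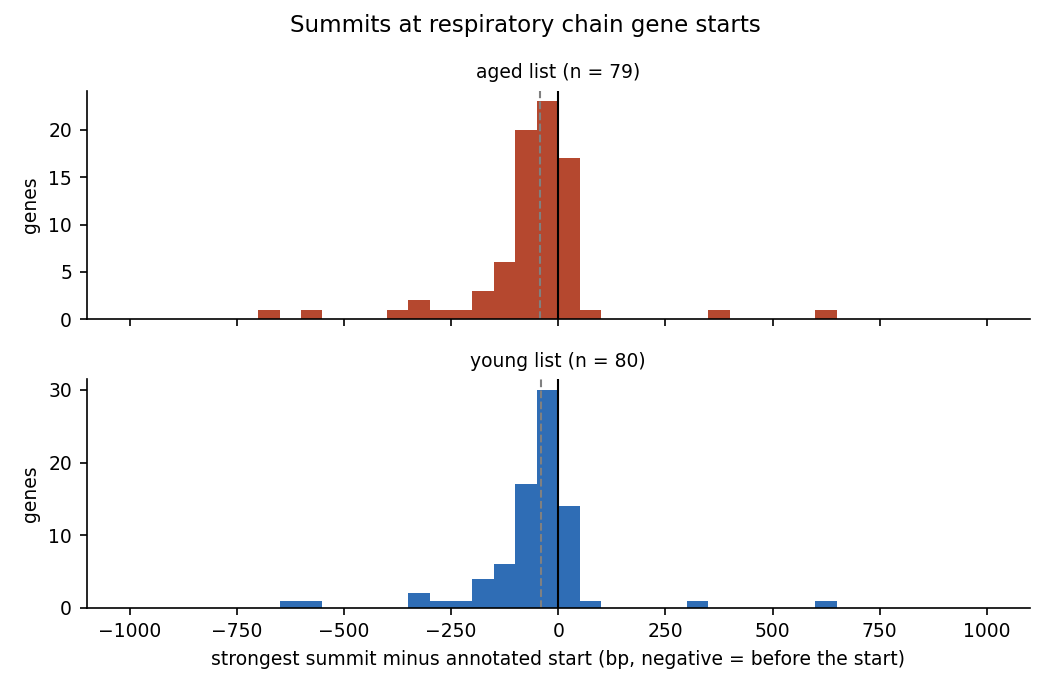
Distance of the strongest summit within 1 kb from the annotated start, in bp, for 79 respiratory chain genes in the aged list (top) and 80 in the young list (bottom); bars count genes in steps of 50 bp, the solid line marks the start and the dashed line the median. Most summits fall in the 100 bp before the start, and the medians are -42 and -39.5.

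Many of these promoters face another gene. Of the 82 genes with an entry, 23 (28.0%, exact 95% interval 18.7 to 39.1) had the start of a gene of the opposite strand within 1 kb before their own, against 12.9% of genes open in both lists and 8.48% of all genes. Ribosomal protein genes had 13.0% and proteasome genes 18.2%. In order of aged rank the first 6 were Atp5j with Gabpa (148 bp), Ndufb5 with the mitochondrial ribosomal gene Mrpl47 (308 bp), Ndufaf2 with the DNA repair gene Ercc8 (113 bp), Uqcrh with Lrrc41 (199 bp), Ndufaf8 with Tepsin (203 bp) and Atp5c1 with Kin (102 bp). The shortest gap was 10 bp, between Ndufa7 and the ribosomal gene Rps28. Sdhd and Timm8b, a chaperone of mitochondrial import, start 52 bp apart, and the 51 bases between them (GRCm38.p6, chr9:50603850-50603900, strand of Sdhd) are shown with the GABP/ETS letters in capitals, as an example of an open stretch that serves the starts of a pair of mitochondrial genes. This stretch was chosen after its values were seen.
Sdhd to Timm8b: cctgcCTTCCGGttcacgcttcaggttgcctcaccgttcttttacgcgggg

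Regions at shared ends were more often strong, in this set and over all genes. For 45 of the 93 genes the strongest aged gene-end region also lay within 1 kb of an end of another coding gene (48.4%, against 26.7% of all genes with an aged region). Of these 45 genes, 36 (80%) were in the strongest 10% of the aged list and 41 (91.1%) in that of the young list. Of the 48 genes with no neighbour at the region, 28 (58.3%) and 34 (70.8%) were. Over all genes the shares were 65.3% and 75.1% with a neighbour and 48.4% and 58.1% without. Ribosomal protein genes had 78.3% with a neighbour and 76.7% without in the aged list, and 87.0% and 90% in the young list. Proteasome genes had 69.2% and 73.1% in the aged list, and 92.3% and 88.5% in the young list. By this rule a wider region reaches another gene's end more easily, and the part of width in these shares was not tested. How much of a shared region belongs to each gene was not tested either. The Ndufb6 region, at percentile 98.2 of the aged list, lies at the ends of Topors and Smim27, and the Ndufb6 start itself was at percentile 92.8 in the aged list and 94.5 in the young list.

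The letters of the regulators were searched on both strands of the 300-base promoter entries, from 250 bases before to 50 after the start, as a description of sequence and not of binding. The NRF1 letters GCGCATGCG were in 10 of 82 promoters (12.2%, interval 6.01 to 21.3), against 3.79% of genes open in both lists and 2.61% of all genes. With any base in the middle position (GCGCANGCG), 24 promoters (29.3%, interval 19.7 to 40.4) held them, against 14.0% and 9.63%. Ribosomal protein promoters had 4.35% for the exact letters and 13.0% for the looser ones, and proteasome promoters 3.03% and 18.2%. The YY1 letters AAGATGGCG were in 8 (9.76%, interval 4.31 to 18.3), against 3.18% and 2.14%. Ribosomal (5.80%) and proteasome (6.06%) promoters lay inside that interval. In the 250 bases before the start alone, the YY1 share was 1.22% of the set and 1.22% of genes open in both lists. The GABP/ETS letters CCGGAAG were in 22 (26.8%, interval 17.6 to 37.8), against 18.2% and 12.9%, with ribosomal (36.2%) and proteasome (33.3%) promoters higher still. The Sp1 letters GGGCGG, common to GC-rich promoters, were in 39 (47.6%, interval 36.4 to 58.9), near the 49.2% of all genes and under the 67.7% of genes open in both lists. The NRF1 letters are nearly the same on both strands, so 1 site often matched on each strand, and each promoter was counted once.

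**Figure D5:**
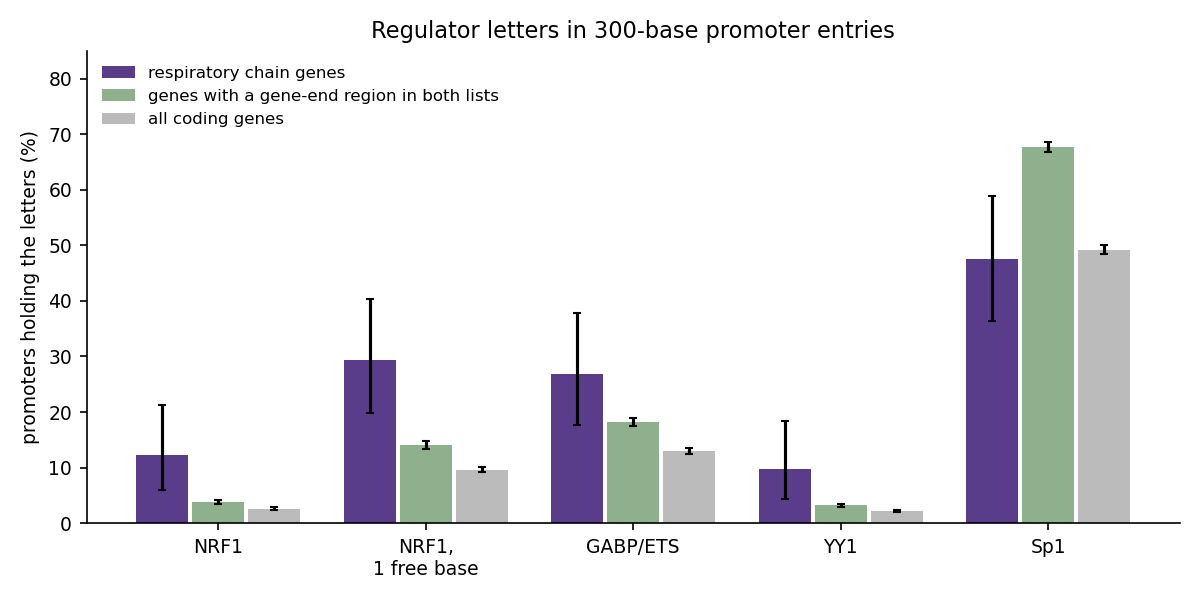
Percent of promoter entries that hold the letters of each regulator on either strand, for 82 respiratory chain genes, 11025 genes with a gene-end region in both lists and 17491 coding genes, with exact 95% intervals for counting error. Respiratory chain promoters have the highest share for NRF1 (12.2%), its form with 1 free base (29.3%), GABP/ETS (26.8%) and YY1 (9.76%), and for Sp1 genes open in both lists are highest (67.7%).

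The letters were spread unevenly over the complexes, on small numbers. GABP/ETS letters were in 5 of 7 complex II promoters, at Sdhaf1, Sdhaf2, Sdhaf3, Sdhb and Sdhd, against 6 of 42 in complex I and 6 of 15 in complex V. YY1 letters were in 6 complex I promoters and in none of complexes II, III and IV. All 8 YY1 matches ran in the direction of the gene and 7 began 10 to 35 bases after the start, whereas over all promoters 74.5% ran with the gene and 57.4% lay after the start. The exact NRF1 letters were in Ndufa8, Ndufa11, Ndufaf4, Ndufaf5, Uqcr11, Uqcrc1, Cox6a1, Atp5g2, Atp5k and Atp5l. The median percentile of the start region was 90.2 with NRF1 letters and 93.9 without in the aged list, and 91.8 and 95.2 in the young list. With GABP/ETS letters it was 93.3 against 93.9 without in the aged list, and 95.2 against 94.7 in the young list. For YY1 letters, in only 8 promoters, it was 88.5 against 93.9 without in the aged list, and 91.2 against 95.2 in the young list. In Atp5j, the GABP/ETS letters lay 61 bases before the start that faces Gabpa. The Ndufa11 letters printed above lie inside its region, but the strongest aged summit has an offset of -671 from the start.

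Regions found at only 1 age were weak at these genes, as they were over all coding genes, and nearly all were in the young list. In all, 150 aged and 180 young regions lay within 1 kb of a gene end or inside a span. Of the aged regions 1 (0.667%, interval 0.0169 to 3.66) had no overlap in the young list, against 9.36% of the regions of any coding gene. This share depends on the rule: it was 19.3% where a reciprocal overlap of 50% was asked and 15.3% where summits had to lie within 100 bp. Under either rule no share over all coding genes was computed, so these values stand without a comparison. The aged region with no overlap lies at chr1:36692260-36692448, beside the main Cox5b region, with a fold of 1.87. Of the young regions 45 (25%, interval 18.9 to 32.0), in 34 genes, had no overlap in the aged list, against 28.7% for any coding gene. Their folds ranged from 1.94 to 6.29 with a median of 2.86, and the young regions that overlapped an aged one had a median of 49.2. Over all coding genes these medians were 2.69 and 8.19. For ribosomal protein genes they were 2.38 and 40.3, and for proteasome genes 3.04 and 43.2. By place, 16 of 123 young gene-end regions (13.0%, against 13.6% for any gene) and 29 of 57 inside a span (50.9%, interval 37.3 to 64.4, against 32.6%) lacked an aged counterpart. Inside spans the share was 69.8% for ribosomal protein genes and 46.9% for proteasome genes. With equal numbers of the strongest regions from each list, the young share at and inside the respiratory chain genes was 8.20%. The share over all coding genes was not computed for equal numbers. Aged regions without a young counterpart were 1 of 119 at gene ends (0.840%, against 3.70%) and 0 of 31 inside (interval up to 11.2, against 11.1%). The young list is the longer, with 131656 regions against 117284 in the aged list.

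By complex, young-only regions numbered 27 of 98 in complex I, 2 of 13 in II, 4 of 12 in III, 9 of 26 in IV and 3 of 31 in V. Ndufaf2 had most, 6 of its 10 young regions, all inside its span of 106064 bp and all with folds of at most 3.43, while its aged list held 5 regions. Cox4i2, Ndufa4, Ndufa6 and Ndufab1 had 2 each. Ndufa4l2 (6 aged and 5 young regions), Atp5d (6 and 3) and Ndufs4, an accessory subunit gene mutated in Leigh syndrome in humans (5 and 4), were also among the genes with most regions. At Ndufs4 the 4 regions of the young list ranged in fold from 4.53 to 21.2, and each overlapped an aged region. At the other extreme 46 genes had exactly 1 region in each list, and 65 had none found at only 1 age. These counts were not computed over all coding genes, so they stand without a comparison.

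Within their own lists, the genes ranked slightly lower in the aged list, as most genes did. The median difference in percentile, aged minus young, was -1.66 over the 93 genes open in both, and 14 (15.1%) ranked higher in the aged list. Over all 13851 such genes the median was -1.71, and 18.3% ranked higher in the aged list. Ranks of lists of unequal length show no change by themselves.

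Other genes of the pathway, outside the symbol rule, were open as well. Of 47 assembly, cytochrome c and regulator genes, 45 were open at a gene end at both ages, against 63.3% of all protein-coding genes. The strongest 10% of the aged list held 33 of them and that of the young list 37, against 33.7% and 40.1% of all genes. Tmem126b, a complex I assembly factor, had folds of 157 in the aged list and 210 in the young list, and Gabpa shared the values of Atp5j. Tfam, whose product binds mitochondrial DNA, had 54.1 and 77.8. Of the regulators, Yy1 had 67.4 in the aged list and 88.2 in the young list, Nrf1 20.8 and 48.6, and Ppargc1a, the coactivator that drives mitochondrial biogenesis in muscle, 35.0 and 46.0. Atpaf2 and Gabpb1 had no gene-end region in either list, but all 47 genes had a region at an end or inside the span in both. Of all 21883 protein-coding genes, 15585 did.

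The cell label was checked against marker genes. All 8 muscle stem cell markers had gene-end regions in both lists, against 63.3% of all protein-coding genes. By aged fold they ran from Pax7, with 16.6 in the aged list and 26.7 in the young list, to Cdh15 with 61.7 and 78.1. Itga7 and Cd34, on whose products the cells were sorted, are among the 8. Markers of other cell types were partly open at their ends. Of 4 fibro-adipogenic markers 3 had gene-end regions in both lists, as did 2 of 4 endothelial markers and 1 of 4 immune markers. All 4 endothelial markers had a region at an end or inside the span in both lists, as did 15585 of all 21883 protein-coding genes. Of the immune markers 1 did, 2 had such a region in the young list only and 1 had none. Mature fibre markers, which matter for the muscle forms of complex IV, had weak ends: the folds of those listed ran from 5.19 to 10.2 in the aged list, where Myh4 had none, and from 4.27 to 16.6 in the young list. Among the open ends of the other cell types were Dpt (98.9 in the aged list and 129 in the young list) and Col15a1 (20.3 and 28.4) of the fibro-adipogenic list, Tek (42.5 and 58.6) and Kdr (2.69 and 8.01) of the endothelial list, and Cd68 (31.5 and 40.0) of the immune list. The fibro-adipogenic marker Ly6a had a gene-end region in the aged list only (percentile 17.8) and the endothelial marker Cdh5 in the young list only (percentile 3.01). Pecam1, Ptprc, Itgam and Cd3e had none at their ends. The part of other cells in the results was not tested.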

How the data were processed

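Members and gene lists were chosen with earlier results of these data known. The submitters' processing notes name Bowtie2 as a tool and mm10 (GRCm38) as the build. The deposited files are 2 peak lists in narrowPeak layout, 1 per age after PGE2. The peak caller's options, read filters, cut-site shift and which libraries were pooled are not stated in the labels or files. For each peak the authors deposited an integer score (not used), a fold ratio over background, and a −log10 p-value and −log10 q-value. In the authors' deposited tables the minimum −log10 q was 2.16 in the aged list and 2.08 in the young list.

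Rows that touch or overlap were merged, which gave 117284 regions from 215838 aged rows and 131656 from 265507 young rows, each with the values of its strongest row. Overlap with the other list by at least 1 bp made a region shared. Gene spans and promoter entries were RefSeq GRCm38.p6, and 82 of 100 members had an entry. Regions of a gene are not replicates, and intervals (exact Clopper-Pearson, 95%) cover counting error only. No test was run between ages. Named genes were every member not open in both lists, the 3 highest and 2 lowest per complex by aged percentile, the 5 with most regions and with most one-age regions, fixed tissue isoforms, the 4 succinate dehydrogenase subunits, and up to 6 with a divergent neighbour; others are examples chosen after their values were seen. A result that this rule would name is not reported here. Printed sequences were limited to matches before the start. Merging and overlap were tested on simulated intervals. Python 3.11.15, pandas 2.3.3 and scipy 1.17.1 were used. Alternatives were the gene-end window, the overlap rule, the q threshold, equal list lengths, unmerged rows and the promoter window.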

Additional observations from a re-analysis of the deposited data

How the results depend on the processing

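Across the alternatives run over all members, 91 to 93 were open at a gene end in both lists, 79 had a start region in both, and 64 to 72 reached the strongest 10% of the aged list and 75 to 77 that of the young list. The count of genes open in the young list only, 1, became 3 with windows of 500 bp (Atp5g3, Cox4i2, Cox8b), 2 with windows of 2.5 kb (Cox6a2, Cox8b) and 2 with the 58642 strongest regions of each list (Cox4i2, Cox5a). The share of aged regions without overlap, 0.667%, was 19.3% where a reciprocal overlap of 50% was asked, 15.3% with summits within 100 bp, and 0% with a −log10 q of at least 5, with equal numbers, or without gene-end regions. The young share, 25%, was 8.20% with equal numbers and 50.9% without gene-end regions. For the overlap rules, the q threshold and equal numbers, no share over all coding genes was computed beside these. Chosen after seeing the data, leaving out Ndufaf2 gave 0.690% and 22.9%. With only the 250 bases before the start, member shares were 19.5% for the looser NRF1 letters and 1.22% for YY1, whose matches lie mostly after it. For the looser NRF1 letters, proteasome promoters had 18.2% in that window and ribosomal protein promoters 4.35%. Over all promoters that window gave 2.19% for NRF1, 8.00% for its looser form, 10.2% for GABP/ETS, 0.840% for YY1 and 45.8% for Sp1, and over genes open in both lists 3.19%, 11.7%, 14.2%, 1.22% and 63.0%. With the full 300 bases, genes open in both lists gave 3.79%, 14.0%, 18.2%, 3.18% and 67.7%. No paired analysis was possible because each age has 1 pooled list, and leaving out a replicate was not run for the same reason. Depth is unknown, so a region missing from a list was not detected there rather than absent.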
